A study of Homo sapiens with 6 samples.

Results

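Type I interferon-stimulated genes were followed in cultured human cells by RNA-seq of total RNA. The cell line is HBMEC, which the labels describe as endothelial cells from brain. The 3 libraries of the OGD/R group came from cells after oxygen-glucose deprivation and reperfusion, in which oxygen and glucose are withdrawn and then given back, and the 3 control libraries came from cells under normal culture. The titles mark the groups only as OGD and CON, and no source used here gives the duration of either step. No other treatment and no genetic change is named for either group, and the labels do not tell whether replicates were cultured apart, so that p-values reflect only how these libraries vary, possibly for technical reasons. The members were chosen by name, with earlier results of these data known. Of the 44 named genes, 39 had a row among the 17104 genes of the deposited count table, and 38 of these 39 had at least 10 counts in every library, BST2 being the exception. IFI44L, DHX58, XAF1, CMPK2 and EPSTI1 had no row and were not analysed here.

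Type I interferons are secreted when a cell senses foreign or misplaced nucleic acid. They bind the IFNAR1 and IFNAR2 receptor pair, whose kinases JAK1 and TYK2 phosphorylate STAT2 at the receptor. With IRF9 it enters the ISGF3 complex, which binds the interferon-stimulated response element (ISRE) in the promoters of many of the genes described here. The products of these genes bind or degrade viral RNA, block viral entry or budding, and adjust the response. In brain endothelium the pathway is known for its part in barrier function during viral infection.

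The ISRE holds GAAA and GAAA with 2 bases of any kind between them, and it was searched on both strands as GAAANNGAAA, with overlapping matches counted. The windows were RefSeq promoter windows of 300 bases (250 before to 50 after each gene's start, build GRCh38.p14), and 37 of the 44 members matched at least 1 window. The motif stood in a window of 25 of these 37 members (67.6%), against 1195 of 27305 genes with a window (4.38%). A gene can have several windows, and of the windows counted singly, 1255 of 35116 (3.57%) held it. The stretches below are shown because they hold the motif just upstream of 5 of the 7 members that were higher after OGD/R, beside ISG15 and PARP9, which did not pass the test. Capitals mark the motif or its reverse complement, and each stretch is printed 5′ to 3′ on the strand of its gene. The OAS3 stretch lies at chr12:112938323-112938473 (plus strand) and its first and last bases are 151 and 1 bases before the start. The IFIH1 stretch lies at chr2:162318688-162318851 (minus strand), the DDX60 stretch at chr4:168318788-168318848 (minus strand) and the IFIT1 stretch at chr10:89392499-89392537 (plus strand). The IFITM3 stretch lies at chr11:320878-320920 (minus strand), the ISG15 stretch at chr1:1013376-1013407 (plus strand) and the PARP9 stretch at chr3:122564324-122564349 (minus strand).
OAS3: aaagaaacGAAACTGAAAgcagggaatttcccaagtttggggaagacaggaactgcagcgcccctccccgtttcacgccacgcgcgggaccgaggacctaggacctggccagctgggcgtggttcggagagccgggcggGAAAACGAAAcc
IFIH1: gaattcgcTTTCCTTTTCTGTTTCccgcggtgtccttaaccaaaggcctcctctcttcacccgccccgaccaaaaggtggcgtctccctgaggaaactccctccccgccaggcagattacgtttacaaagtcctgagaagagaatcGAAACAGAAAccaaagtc
DDX60: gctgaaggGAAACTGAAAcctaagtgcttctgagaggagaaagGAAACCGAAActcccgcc
IFIT1: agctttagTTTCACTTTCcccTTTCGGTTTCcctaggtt
IFITM3: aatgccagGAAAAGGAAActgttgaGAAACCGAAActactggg
ISG15: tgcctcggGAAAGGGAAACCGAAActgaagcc
PARP9: gcgcaaagTTTCAGTTTCgcttccct
In ISG15 and in IFIH1 a pair of matches overlaps by 4 bases. The PARP9 match at chr3:122564332-122564341 is also in the window of DTX3L, which is transcribed in the other direction. The windows of IFI35, UBE2L6, TRIM25, ADAR, STAT2 and IRF9 held no match.

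The total count per library was 34484647, 31048662 and 33935682 after OGD/R and 32107917, 33607821 and 32404705 in control cells. Endothelial identity was poorly covered by the table: of 11 endothelial markers, ENG, ESAM, EGFL7 and CDH5 had counts, and PECAM1, VWF, CLDN5, KDR, TEK, TIE1 and ERG had no row. The 4 measured ones summed to 279 to 289 CPM (counts scaled to library size) after OGD/R and 270 to 286 CPM in control cells, and CDH5 rose. The 6 of 10 epithelial markers with counts summed to 2959 to 3020 CPM after OGD/R and 2398 to 2628 CPM in control cells. Most of this sum was keratin: KRT8, KRT18 and KRT7 had means of 1555, 962 and 400 CPM after OGD/R, and these 3 rose. EPCAM (log2 fold change 0.14), CDH1 (-0.28) and CLDN4 (-0.25) did not pass the test described below, and KRT19, KRT5, KRT14 and CLDN7 had no row. Leukocytes can carry high levels of interferon-stimulated transcripts, and 2 of 8 leukocyte markers had counts, summing to 4.70 to 5.22 CPM after OGD/R and 3.81 to 6.0 CPM in control cells, with no row for PTPRC. Of 3 plasmacytoid dendritic cell markers only IL3RA had counts (0.392 to 0.671 CPM after OGD/R and 1.10 to 1.93 CPM in control cells), and it fell. LILRA4 and CLEC4C had no row, and IL3RA alone, at 12 to 63 counts per library, cannot tell whether such cells were present. Of 5 fibroblast markers COL1A1 alone had counts, at 11.7 to 17.8 CPM after OGD/R and 14.2 to 15.2 CPM in control cells. Of 4 pericyte markers RGS5 and CSPG4 had counts, summing to 5.39 to 6.98 CPM after OGD/R and 6.52 to 7.16 CPM in control cells. Of 3 astrocyte markers ALDH1L1 alone had counts, at 0.239 to 0.992 CPM after OGD/R and 0.953 to 1.73 CPM in control cells. The part of the keratin rise and of the IL3RA fall in the results that follow was not tested. In bulk libraries fewer cells of a type and less RNA per cell cannot be told apart.

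The comparison asks which of these genes differ after OGD/R. A small subset rose by 0.15 to 0.51 on the log2 scale, namely OAS3, IFI35, IFIH1, IFITM3, DDX60, IFIT1 and UBE2L6, and TRIM25 alone fell. Of transcripts commonly used to mark an interferon response, IFIT1 passed, and ISG15, MX1, IFI27 and IFI44 did not. MX1, IFI27 and IFI44 had a mean under 100 counts, a depth at which the members' standard errors were 0.22 to 0.57. With edgeR's quasi-likelihood test at an adjusted p under 0.05 (Benjamini-Hochberg over all 17104 genes), 7 of 39 members (17.9%) were higher after OGD/R, where 10.2% of all genes were. In the other direction 1 of 39 members (2.56%) was lower, where 9.48% of all genes were. Over all genes these shares are 1749 higher and 1621 lower, or 1383 and 2098 with scaling by total counts alone, under which 6 members were higher and 1 lower. The remaining 31 members did not pass, and 17 of the 39 had an unadjusted p under 0.05, against 5181 of all 17104 genes.

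The direction was more uniform than the calls. The log2 fold change was above 0 in 34 of 39 members (87.2%) and in 8418 of 17104 genes (49.2%). Its median was 0.17 over the 39 members and 0.00 over all genes (-0.0046 before rounding), and the members ranged from -0.25 (TRIM25) to 0.68 (OASL). Several positive values lay within their standard error of 0, such as PLSCR1 (0.00), LGALS3BP (0.01) and ADAR (0.01). The number of members above 0 was 30 with scaling by total counts, 29 without OGD/R replicate 1 and 36 without OGD/R replicate 2. All 3 OGD/R libraries lay above all 3 control libraries in 12 members (30.8%), against 16.4% of all genes. They lay below them in 1 member, TRIM25 (2.56%), against 16.6% of all genes. OGD/R replicate 2 had the lowest value of its group in 23 of 39 members, replicate 1 in 11 and replicate 3 in 5. Each library's median log2 deviation from the control mean over the members was 0.14, 0.09 and 0.17 after OGD/R and -0.0054, -0.0014 and 0.0043 in control cells. For each gene the control deviations average 0 by construction. The control medians are therefore drawn towards 0 and do not measure the spread between control libraries.

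**Figure D1:**
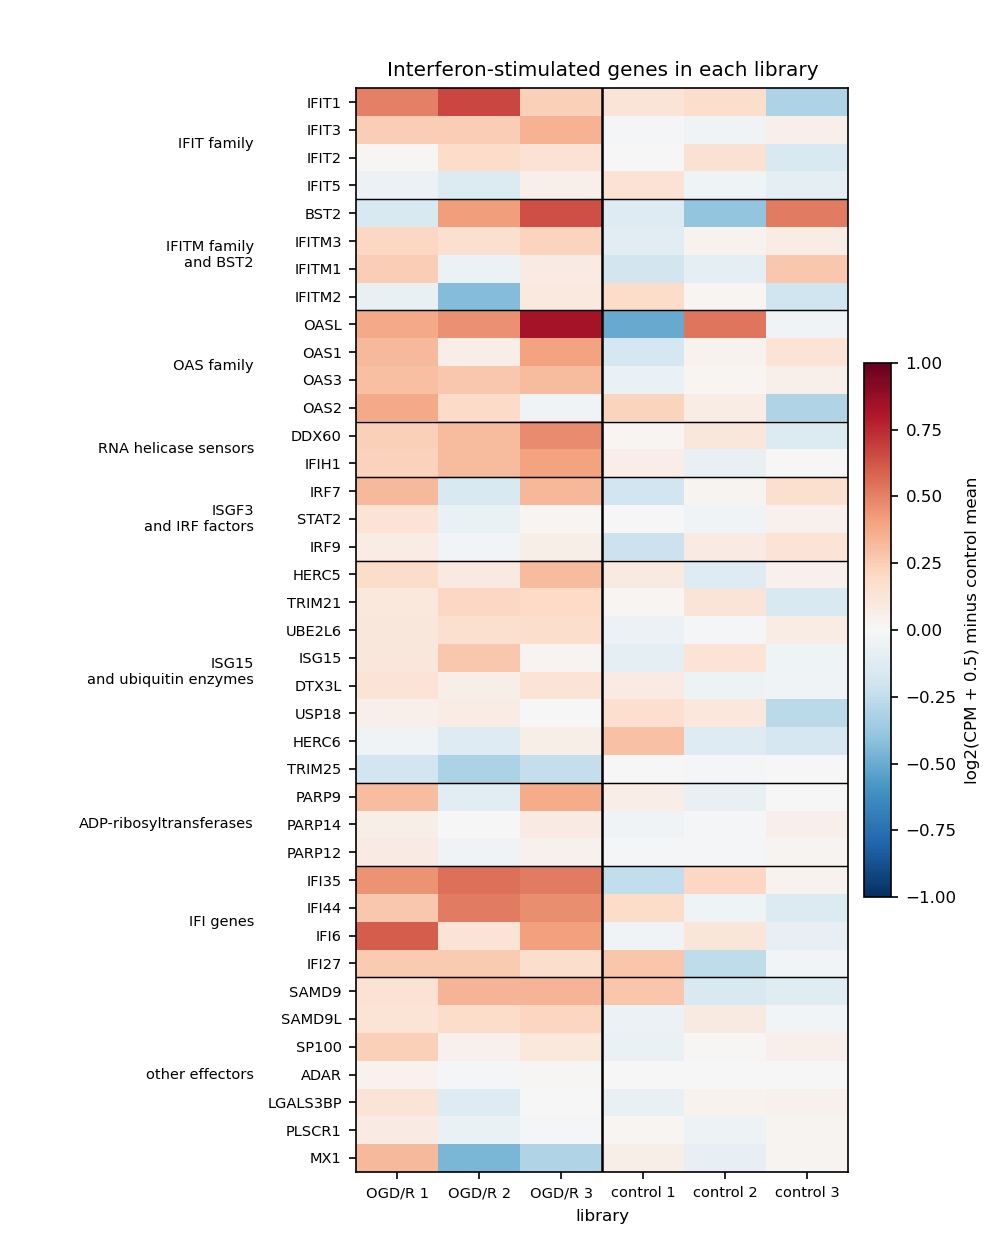
Log2 deviation of each of the 39 measured members from its control mean (CPM plus a pseudocount of 0.5), with members in rows grouped by role and the 3 OGD/R libraries left of the 3 control libraries. The OGD/R columns are mostly above the control mean, except in members such as TRIM25, IFIT5, HERC6, PLSCR1, IFITM2 and MX1.

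The oligoadenylate synthetases make the short RNA-like messenger 2-5A, which switches on the nuclease RNase L. OAS3 (ENSG00000111331), which prefers long double-stranded RNA, had 153, 150 and 154 CPM after OGD/R and 119, 126 and 129 CPM in control cells. The groups did not overlap, and the OGD/R libraries differed little among themselves. The mean was 152 ± 2.36 CPM after OGD/R and 124 ± 5.16 CPM in control cells (SD, n = 3 each), a log2 fold change of 0.29 ± 0.05 (SE) with an adjusted p of 1.73e-06 from edgeR. The catalytically inactive OASL, which binds the RNA sensor RIG-I, had the largest positive log2 fold change of the members, 0.68 ± 0.32, but did not pass (adjusted p = 0.14, edgeR). It had 1.55, 1.67 and 2.30 CPM after OGD/R and 0.612, 1.79 and 1.03 CPM in control cells, so control replicate 2 lay among the OGD/R values. Without that library its log2 fold change was 1.16 with an edgeR adjusted p of 0.0172, and over all alternatives its adjusted p ran from 0.0172 to 0.499. OAS1 (0.31 ± 0.22) and OAS2 (0.28 ± 0.41) did not pass, and OAS2 was at or under 1.08 CPM in every library.

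Both measured members among the RNA helicase sensors rose, where 10.2% of all genes did. RIGI, the gene of the helicase RIG-I, is not among the members and did not pass. Its log2 fold change was 0.42 ± 0.32 (edgeR adjusted p = 0.401) at a mean of 42.3 counts per library, with all OGD/R libraries above all control libraries. IFIH1 (ENSG00000115267), which encodes the cytosolic double-stranded RNA sensor MDA5, had 36.8, 39.0 and 41.5 CPM after OGD/R and 32.8, 29.7 and 31.3 CPM in control cells. No OGD/R value was as low as any control value. The log2 fold change was 0.32 ± 0.07 with an edgeR adjusted p of 0.000671. DDX60 (ENSG00000137628), a helicase reported to assist RIG-I signalling, had 18.5, 19.6 and 21.8 CPM after OGD/R and 15.8, 16.9 and 14.1 CPM in control cells. Its groups were also separate, with a log2 fold change of 0.35 ± 0.10 and an edgeR adjusted p of 0.0062. That call was lost without control replicate 3 (0.29, adjusted p = 0.0696) and without OGD/R replicate 3 (0.28, adjusted p = 0.0709), the range over all alternatives being 0.00108 to 0.0709.

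Some IFIT proteins bind viral RNA through its 5′ end, and IFIT1 (ENSG00000185745) recognises caps that lack a methyl mark on the first nucleotide. IFIT1 had 6.04, 6.83 and 4.92 CPM after OGD/R and 4.53, 4.71 and 3.22 CPM in control cells. The lowest OGD/R value was only just above the highest control value, and the log2 fold change was 0.51 ± 0.18 with an edgeR adjusted p of 0.0334. It was lost without control replicate 3 (0.36, adjusted p = 0.222), OGD/R replicate 1 (0.50, 0.081) or OGD/R replicate 2 (0.40, 0.203), the adjusted p running from 0.0172 to 0.222 over all alternatives. IFIT3, which stabilises IFIT1 on RNA, had 13.2, 13.1 and 14.1 CPM after OGD/R and 10.9, 10.7 and 11.4 CPM in control cells, without overlap. Its log2 fold change of 0.29 ± 0.11 stood just outside the threshold (adjusted p = 0.0501), and it passed in 4 of 16 alternatives, with an adjusted p of 0.0346 to 0.177. IFIT2 (0.11) and IFIT5 (-0.05) did not pass.

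The IFITM proteins sit in cell and endosome membranes and hinder fusion of entering viruses. IFITM3 (ENSG00000142089) had 127, 123 and 129 CPM after OGD/R and 102, 113 and 116 CPM in control cells. The groups did not overlap, and the log2 fold change was 0.20 ± 0.05 with an edgeR adjusted p of 0.00227. With the correction for transcript length and GC content it was 0.03 with an adjusted p of 0.732, the range over all alternatives being 0.00111 to 0.732. IFITM1 had 1.37, 1.01 and 1.16 CPM after OGD/R and 0.888, 0.983 and 1.4 CPM in control cells, and IFITM2 had 2.54, 1.86 and 2.92 CPM after OGD/R and 3.12, 2.74 and 2.28 CPM in control cells. Both pairs of groups overlapped, and the log2 fold change was 0.12 ± 0.34 for IFITM1 and -0.15 ± 0.23 for IFITM2. The 3 genes share sequence: 34.1% of the 50-base stretches of IFITM2, 32.0% of those of IFITM1 and 17.4% of those of IFITM3 also occur in other annotated genes, so their counts are uncertain. BST2, the tether that holds budding virus at the membrane, had 0.233, 0.588 and 0.775 CPM after OGD/R and 0.245, 0.119 and 0.669 CPM in control cells, and its log2 fold change of 0.62 ± 0.57 did not pass (edgeR adjusted p = 0.513). The median of the 4 genes was 0.16, and -0.01 with the length and GC correction.

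**Figure D2:**
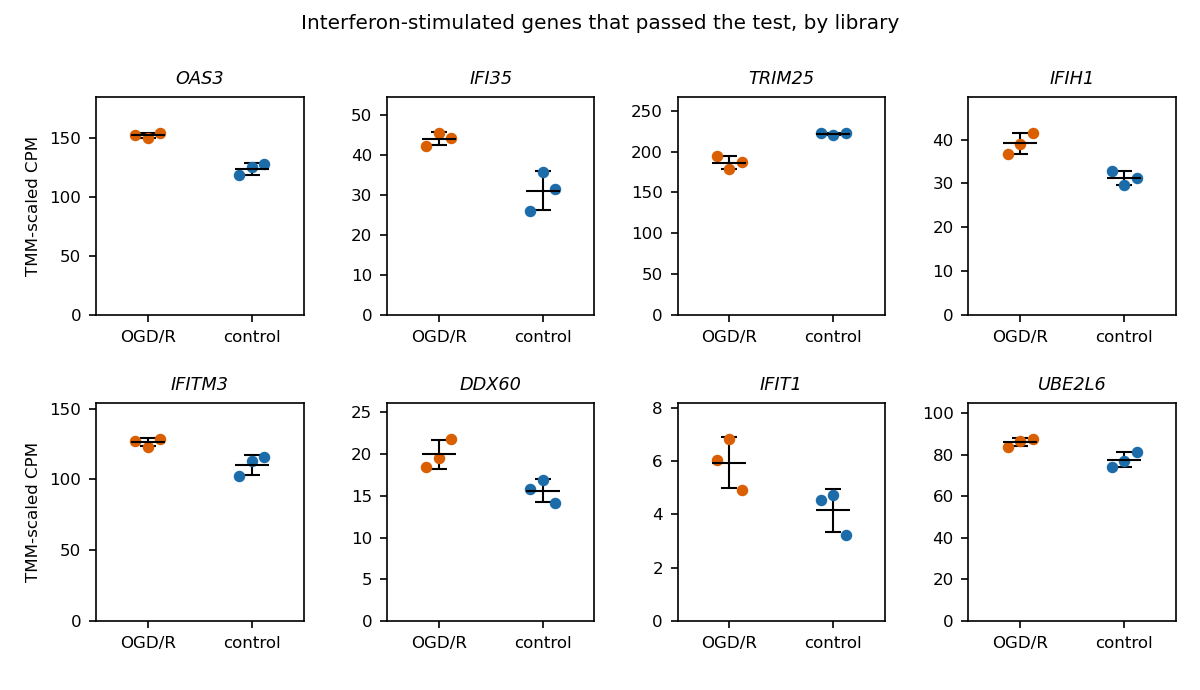
CPM of the 8 members past the threshold, 1 panel each, with 3 points for OGD/R libraries left of 3 points for control libraries a line at each group mean and bars of 1 SD, on axes from 0. In each panel the groups do not overlap, and TRIM25 is the panel in which the OGD/R points are the lower ones.

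ISG15 is a ubiquitin-like protein that some enzymes of the next group attach to or remove from other proteins. ISG15 itself had 14.1, 15.8 and 13.2 CPM after OGD/R and 12.2, 14.3 and 12.6 CPM in control cells. The ranges overlapped, and the log2 fold change was 0.14 ± 0.11 (edgeR adjusted p = 0.401). UBE2L6 (ENSG00000156587), the conjugating enzyme for ISG15, had 83.9, 86.6 and 87.6 CPM after OGD/R and 74.3, 77.1 and 81.5 CPM in control cells. All 3 OGD/R values were higher, but the change was the smallest of the calls, 0.15 ± 0.05 (edgeR adjusted p = 0.0366). It passed in 9 of 16 alternatives, with an adjusted p of 0.0271 to 0.429. The call was lost with scaling by total counts (0.12, 0.112) and with the length and GC correction, alone (0.06, 0.429) or combined with the replicate block (0.06, 0.414). With the replicate block alone it was kept (0.15, 0.0378). It was also lost without control replicate 1 (0.12, 0.135), control replicate 2 (0.15, 0.0613), OGD/R replicate 2 (0.14, 0.117) or OGD/R replicate 3 (0.14, 0.129).

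TRIM25 (ENSG00000121060) is a ubiquitin ligase known for modifying RIG-I and for acting as a ligase for ISG15. It was the single member that fell, with 194, 178 and 188 CPM after OGD/R and 223, 220 and 222 CPM in control cells. The control libraries lay close together and above all OGD/R libraries. The mean was 187 ± 8.04 CPM after OGD/R and 222 ± 1.24 CPM in control cells (SD, n = 3 each), a log2 fold change of -0.25 ± 0.04 with an edgeR adjusted p of 1.26e-05. TRIM25 passed in 16 of 16 alternatives, its log2 fold change running from -0.28 to -0.17. HERC5 (0.20), the main ISG15 ligase in human cells, TRIM21 (0.17), an intracellular antibody receptor, DTX3L (0.11), HERC6 (-0.05) and USP18 (0.03), which removes ISG15 and restrains the receptor, did not pass. TRIM21 passed without control replicate 2 (0.24, adjusted p = 0.0447, against 0.521 at most over the alternatives). Of the 50-base stretches of USP18, 23.4% occur in other genes, USP41 among them.

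Among genes named for their induction by interferon, IFI35 (ENSG00000068079), whose product pairs with NMI, had 42.4, 45.5 and 44.3 CPM after OGD/R and 26.0, 35.7 and 31.6 CPM in control cells. Control replicate 1 was well below the other control libraries, and none reached the OGD/R values. The mean was 44.1 ± 1.59 CPM after OGD/R and 31.1 ± 4.90 CPM in control cells (SD, n = 3 each), a log2 fold change of 0.50 ± 0.08 with an edgeR adjusted p of 6.0e-06. Without control replicate 1 the log2 fold change was 0.39, and the gene passed in 16 of 16 alternatives. IFI6, a small membrane protein found in mitochondria and the endoplasmic reticulum, had 7.76, 5.45 and 6.71 CPM after OGD/R and 4.81, 5.39 and 4.62 CPM in control cells. The groups were separate by a narrow margin, and the log2 fold change of 0.43 ± 0.16 did not pass (adjusted p = 0.0521), though it did in 5 of 16 alternatives (adjusted p 0.0264 to 0.295). IFI44 (0.49 ± 0.22, adjusted p = 0.12) and IFI27 (0.33 ± 0.37, adjusted p = 0.617) did not pass. IFI44 had 2.83, 3.46 and 3.31 CPM after OGD/R and 2.63, 2.17 and 2.01 CPM in control cells, without overlap. IFI27 had 1.11, 1.11 and 1.01 CPM after OGD/R and 1.13, 0.625 and 0.821 CPM in control cells.

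No transcription factor of the group passed. STAT2 had 69.6, 60.7 and 64.2 CPM after OGD/R and 63.2, 61.9 and 65.3 CPM in control cells, a log2 fold change of 0.03 with a 95% interval of -0.08 to 0.15. IRF9, the DNA-binding subunit of ISGF3, had 4.90, 4.54 and 4.83 CPM after OGD/R and 3.92, 4.91 and 5.14 CPM in control cells, with 0.03 ± 0.17. Of the 50-base stretches of IRF9, 43.6% are shared with other annotated genes. IRF7, which amplifies interferon production, had 12.5, 8.88 and 12.6 CPM after OGD/R and 8.60, 10.1 and 11.2 CPM in control cells, with 0.19 ± 0.13 (adjusted p = 0.343). Overlapping groups were common to all 3.

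The ADP-ribosyltransferases PARP9 (0.21 ± 0.10), PARP12 (0.03) and PARP14 (0.05 ± 0.05) did not pass. PARP9, which partners DTX3L, had 24, 17.9 and 25.2 CPM after OGD/R and 20.3, 18.3 and 19.4 CPM in control cells, so OGD/R replicate 2 lay below all control libraries. Without it PARP9 passed (0.35, edgeR adjusted p = 0.0113, against 0.539 at most over the alternatives). PARP14, among the 5 members with the highest CPM, had 105, 101 and 107 CPM after OGD/R and 98.3, 99.8 and 105 CPM in control cells.

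Of the other effectors, 7 of 10 were measured and none passed the edgeR test at the adjusted threshold. An unadjusted p under 0.05 was found in 2 of the 7, against 5181 of all 17104 genes. ADAR, the editor that turns adenosine into inosine in double-stranded RNA, had the highest CPM of all measured members, with 482, 465 and 474 CPM after OGD/R and 470, 469 and 470 CPM in control cells. Its log2 fold change was 0.01 with a 95% interval of -0.07 to 0.09. MX1, a dynamin-like GTPase that blocks viral nucleocapsids, had 1.43, 0.621 and 0.745 CPM after OGD/R and 1.10, 0.953 and 1.06 CPM in control cells, a log2 fold change of -0.15 ± 0.38 (adjusted p = 0.846). SAMD9 (0.27), a restriction factor for poxviruses, passed in 3 of 16 alternatives. Its change was largest without control replicate 1 (0.43, edgeR adjusted p = 0.0116, against 0.327 at most over the alternatives). SAMD9L (0.18), SP100 (0.13), a nuclear body protein, LGALS3BP (0.01) and the scramblase PLSCR1 (0.00) did not pass. The median of the 7 was 0.01, and -0.02 with scaling by total counts. With the length and GC correction it was 0.10, and ADAR and SAMD9 passed.

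**Figure D3:**
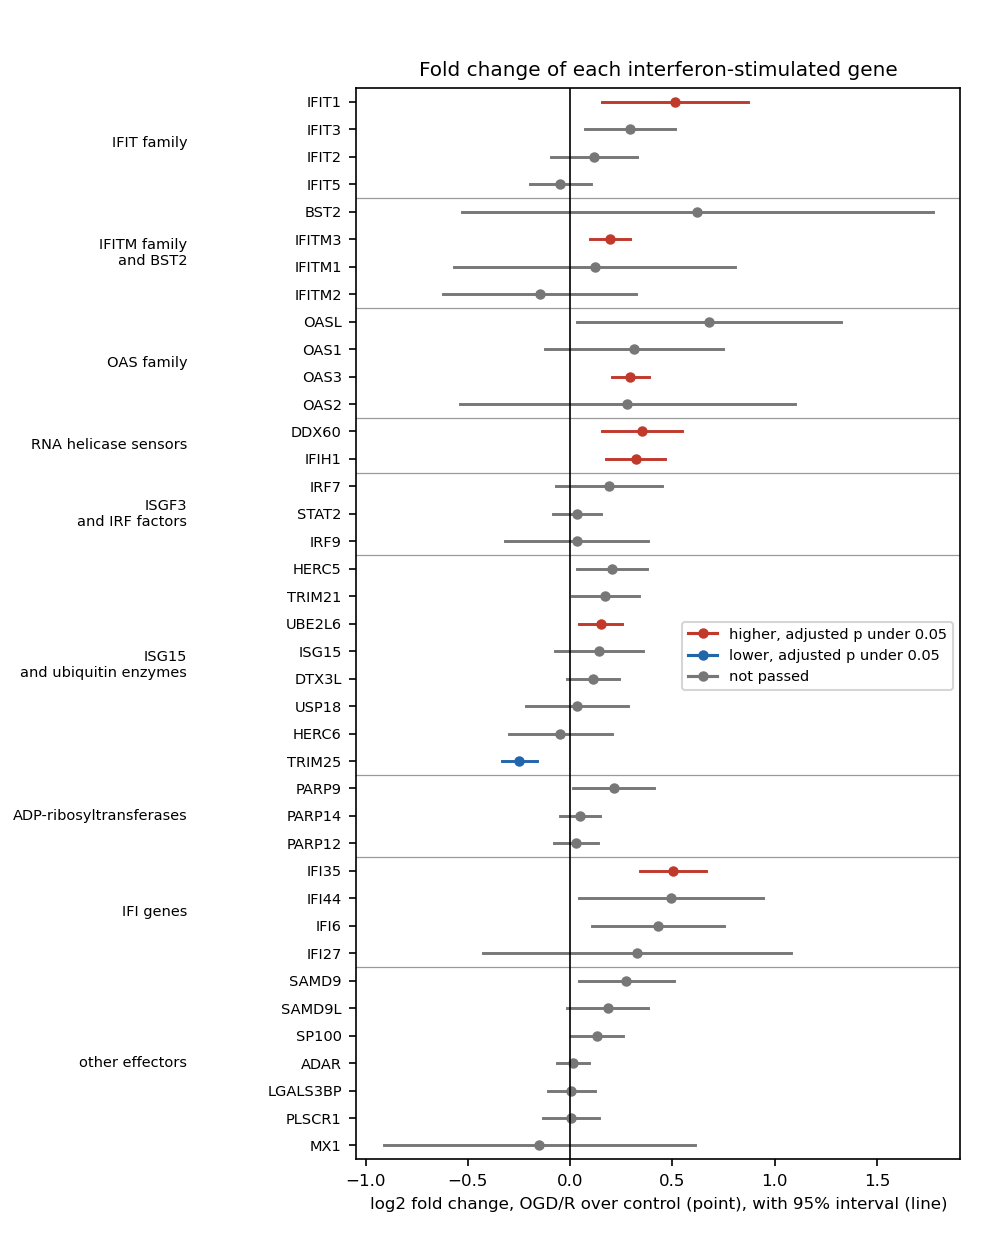
Log2 fold change of OGD/R over control for the 39 members with 95% intervals, grouped by role, with members past the threshold in red (higher) or blue (lower) and the others in grey. Most points lie right of 0, and the widest intervals belong to members with few counts, such as BST2, OASL and MX1.

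Counting depth set what could be seen for each member. The shares of all genes called at each depth were not computed, and at all depths together 10.2% were higher and 9.48% lower. The 15 members with a mean of 1000 or more counts per library had standard errors of 0.039 to 0.079 on the log2 scale, and 6 of them passed. The 15 with 100 to 1000 counts had standard errors of 0.082 to 0.18, and 2 passed. The 9 with under 100 counts (IFITM1, IFITM2, BST2, IFI27, IFI44, MX1, OAS1, OAS2 and OASL) had standard errors of 0.22 to 0.57, and 0 passed the edgeR test, so a change as small as that of OAS3 was not detectable for them at this depth. Per kilobase of annotated exon, the level over all libraries was highest for IFITM3 (87.8 CPM per kilobase), ADAR (48.6) and UBE2L6 (37.2). OAS3 stood at 16.8 and ISG15 at 14.6 CPM per kilobase. IFIT1 stood at 1.09, OAS2 at 0.128 and MX1 at 0.114 CPM per kilobase, the lowest of the measured members.

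**Figure D4:**
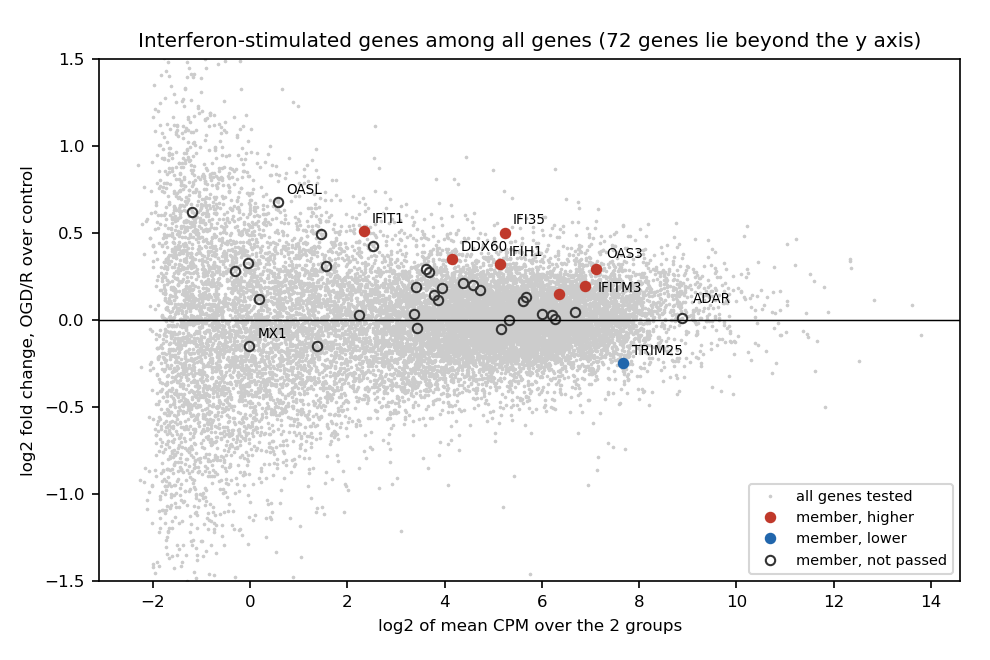
Log2 fold change of OGD/R over control against log2 of mean CPM for all 17104 genes (grey) and the 39 members (larger symbols), with 72 genes beyond the y axis. None of the members that passed lies in the leftmost part of the plot, where low members such as MX1 and OASL lie in the wide scatter at the left.

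Fold changes over all genes moved with transcript length, so the members were also fitted with a correction for length and GC content. Among genes over 4 CPM, the median log2 fold change was -0.04 in 6709 genes with a longest annotated transcript above the members' median of 3278 nucleotides and 0.07 in 4723 genes at or under it. After the correction 10 members were higher, where 10.4% of all genes were, and 1 was lower, where 8.92% of all genes were. Of these 11 members, 6 were also called without the correction: OAS3 (0.41, adjusted p = 2.99e-12), IFI35 (0.39), IFIH1 (0.28), DDX60 (0.38), IFIT1 (0.51) and TRIM25 (-0.17, adjusted p = 0.000323). IFITM3 and UBE2L6 were lost, and ADAR (0.11, adjusted p = 0.00642), PARP14 (0.13, 0.0284), PARP9 (0.27, 0.0337), SAMD9 (0.31, 0.0361) and DTX3L (0.15, 0.0486) passed. In the 19 members with longer transcripts the number called was 10 with the correction and 5 without it, and in the 20 with shorter ones 1 with it and 3 without it. The shares of all genes called on each side of that length were not computed. The log2 fold change was above 0 in 29 of 39 members with the correction, with a median of 0.13. Over all genes the median with the correction was -0.01, and the share above 0 was not computed.

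**Figure D5:**
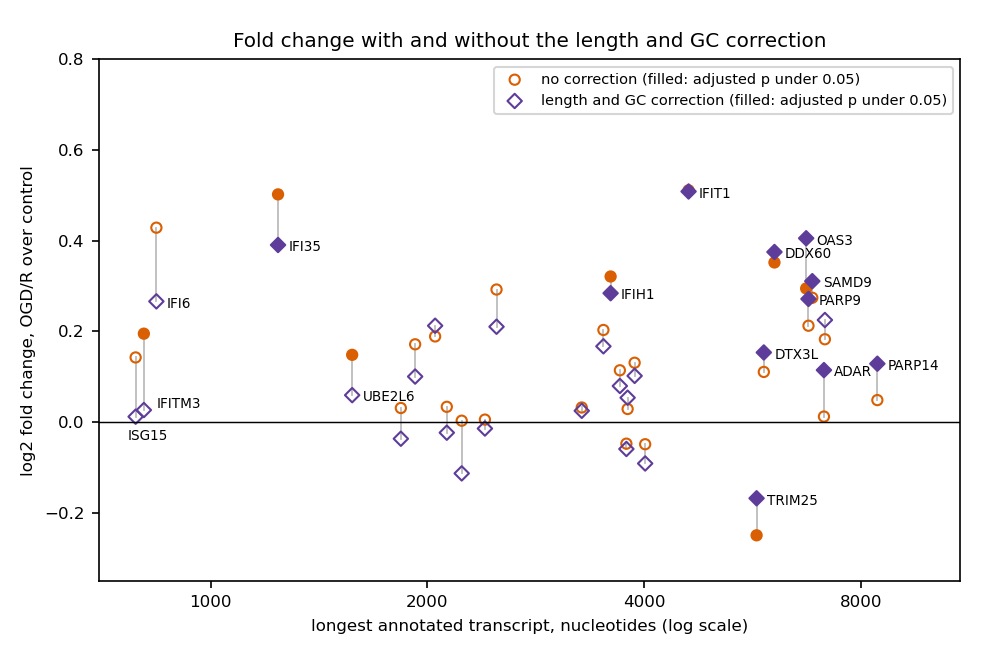
Log2 fold change of the 30 members with a mean of at least 100 counts, without (circles) and with (diamonds) the length and GC correction against the longest annotated transcript on a log axis, filled where the adjusted p is under 0.05. Short members such as IFITM3, ISG15 and UBE2L6 shift down towards 0, and long members such as OAS3, ADAR and PARP9 shift up.

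The promoter motif stood in members that passed and in members that did not: 5 of 7 higher members (71.4%), 18 of 25 that did not pass (72.0%) and 0 of 1 lower member held it among those with counts and a window. Over all measured genes with a window, 64 of 450 with the motif were higher (14.2%) and 43 lower (9.56%), against 12.1% higher and 10.8% lower of 11061 without it. The median log2 fold change was 0.0032 with the motif and 0.0023 without it.

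Around the members stand the genes that make, receive and restrain the signal. Of 53 further pathway genes, 42 had counts, and 9 were higher (21.4%, against 10.2% of all genes) and 4 lower (9.52%, against 9.48% of all genes). None of the 7 ligand genes (IFNA1, IFNB1, IFNE, IFNK, IFNL1, IFNL2 and IFNL3) had a row. Among receptors and kinases, IFNAR1 (0.08), IFNAR2 (-0.12), JAK1 (0.11) and TYK2 (0.06) did not pass. With the length and GC correction JAK1 (0.14, edgeR adjusted p = 0.00253) and TYK2 (0.12, 0.0215) did, as did APOL6 (0.14, 0.0233) and PIAS1 (0.19, 0.02) of the other lists. JAK1 also passed with upper-quartile scaling (0.12, adjusted p = 0.0465), with DESeq2 (0.11, 0.036) and without control replicate 1 (0.13, 0.0448), its adjusted p running from 0.00164 to 0.222 over all alternatives.

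Of 11 sensing and induction genes, 2 rose (18.2%, against 10.2% of all genes) and 2 fell (18.2%, against 9.48%). IRF3, the factor that starts interferon transcription, had 127, 125 and 126 CPM after OGD/R and 104, 109 and 108 CPM in control cells (0.24 ± 0.05, edgeR adjusted p = 0.000103). IKBKE, a kinase that activates it, had 72.8, 73.1 and 69.0 CPM after OGD/R and 57.2, 59.6 and 57.7 CPM in control cells (0.30 ± 0.06, edgeR adjusted p = 5.21e-05). Both were separate from their controls. MAVS, the mitochondrial adaptor downstream of RIG-I and MDA5, had 306, 310 and 312 CPM after OGD/R and 368, 359 and 357 CPM in control cells (-0.22 ± 0.04, edgeR adjusted p = 2.53e-05). MAVS and TRAF3 (-0.18) fell, but both were lost with the length and GC correction (-0.06 each, adjusted p = 0.182 and 0.368), and TRAF3 also without control replicate 3 (-0.14, adjusted p = 0.0682).

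SOCS1, the interferon-induced inhibitor of JAK kinases, rose, and it alone of the 5 measured feedback genes passed (20.0%, against 10.2% of all genes higher). It had 17.4, 15.4 and 14.7 CPM after OGD/R and 9.67, 11.0 and 10.4 CPM in control cells, a log2 fold change of 0.61 ± 0.11 (edgeR adjusted p = 2.5e-05). Of 19 further effectors, 5 rose (26.3%, against 10.2% of all genes) and 2 fell (10.5%, against 9.48%). The cytidine deaminase APOBEC3B had 61.1, 66.8 and 66.9 CPM after OGD/R and 43.0, 53.2 and 44.9 CPM in control cells (0.46 ± 0.07, edgeR adjusted p = 4.36e-07). The nuclear body protein SP110 (0.46), NMI (0.27), the dNTP hydrolase SAMHD1 (0.15) and the mitochondrial RNA-degrading enzyme PNPT1 (0.17) also rose. NMI was lost with the length and GC correction (0.17, adjusted p = 0.117) and without control replicate 3 (0.22, 0.0821). PNPT1 was lost with scaling by total counts (0.14, adjusted p = 0.0533), without control replicate 1 (0.16, 0.0506) and without OGD/R replicate 1 (0.13, 0.13), and SAMHD1 without OGD/R replicate 1 (0.13, 0.0573) or 2 (0.14, 0.0576). ZC3HAV1, the zinc-finger antiviral protein that TRIM25 assists, had 92.4, 87.4 and 87.8 CPM after OGD/R and 113, 112 and 108 CPM in control cells (-0.31 ± 0.05, edgeR adjusted p = 2.01e-06), and was still lower with the length and GC correction (-0.25). The very long RNF213 fell (-0.18), but its log2 fold change was 0.01 with that correction.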

How the data were processed

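RNA-seq of 6 libraries was analysed from 1 table of whole-number read counts per Ensembl gene, deposited by the authors. Per the submitters' processing notes, Trimmomatic, HISAT2, SAMtools, featureCounts and edgeR were used, with no settings. These notes name GRCm38, a mouse build, while the gene IDs are human, so the build behind the counts is uncertain. No source used here says whether counting used strand or how it treated reads with several matches. No gene of the table had fewer than 10 counts in its third-highest library, and the filter behind this is not stated. Symbols came from a gene name table, which matched 17093 of 17104 IDs.

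Counts were scaled by TMM and tested with edgeR 4.0.16 (R 4.3.3) by the robust quasi-likelihood test, two-sided, over all genes without a replicate block. The common biological coefficient of variation was 6.26%, and filterByExpr (minimum count 10) dropped 0 genes. The scripts were tested on simulated data, with recovery required only for changes larger than that of any member here. Levels are TMM-scaled CPM, and the log2 fold changes, with standard errors and 95% intervals, are OGD/R over control. Alternatives were scaling by RLE, by the upper quartile or by total counts, limma-voom 3.58.1, DESeq2 1.42.0, no filter, at least 1 CPM in 3 libraries, the replicate block, a length and GC correction (mgcv 1.9.3, GENCODE 29 transcripts, 96.6% of genes covered) with and without the block, and leaving out each library. In those last fits, 1 group has fewer libraries and shares the spread of the other.

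Values are given for members past the threshold, the 5 with the highest CPM, the largest and smallest fold changes, and 9 fixed by name. Others named with values were taken up after their values were seen. The members and lists were chosen with earlier results of these data known. Of the pathway genes past the threshold, 1 is not reported here.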

Additional observations from a re-analysis of the deposited data

How the results depend on the processing

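Over the 16 alternatives 5 to 10 members were higher and 1 lower, TRIM25. The number of all 17104 genes called higher moved as well. It was 1304 without control replicate 3, where 5 members were higher, and 1840 without control replicate 2, where 9 were. With the length and GC correction it was 1771, where 10 members were higher. The median log2 fold change of the members, 0.17, was 0.14 with total-count scaling and 0.14 to 0.18 when a library was left out. It was 0.13 with the length and GC correction, both alone and combined with the replicate block. Of the other pathway genes, 12 were higher and 1 lower with the length and GC correction, alone or with the block, against 9 and 4. With the correction alone, 10.4% of all genes were higher and 8.92% lower. All genes called lower were 1079 to 1527 when a library was left out (1079 without control replicate 3), against 1621. The labels do not say what a replicate number shares. After removal of group means, same-numbered libraries had correlations of -0.013, 0.077 and -0.047 over 11569 genes, and not every library correlated best with its own number. With 3 libraries per group these correlations cannot tell whether the numbers pair the libraries. With the replicate block 8 members were higher and 1 lower, with a median of 0.18, and 3529 genes changed, against 3370. Omitting the filter tested the same genes.

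Of 688 single-gene values over 43 genes, 612 kept direction and side of the threshold, 27 lost the call, 35 gained it and 14 changed sign, all but RNF213 in genes that had not passed. ADAR was -0.018 with total-count scaling. With the length and GC correction, without and with the block, IRF9 was -0.037 and -0.033, IFITM1 -0.045 and -0.041, and RNF213 0.0129 and 0.0128. When a library was left out, ADAR ran from -0.00026 to 0.025, IRF9 from -0.076 to 0.11, IFITM1 from -0.0046 to 0.34, STAT2 from -0.022 to 0.077, MX1 from -0.60 to 0.066 and IFITM2 from -0.30 to 0.0082. The cause was not tested. Depth limits the 9 members with under 100 counts most.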
